A study of Mus musculus with 11 samples.

Results

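The nuclear-encoded subunits of the respiratory chain were followed in mouse liver cells caught with beads against EpCAM, which the labels call cholangiocytes, the epithelial cells that line the bile ducts. Members were the protein-coding genes of the deposited expression table whose symbols begin with Ndufa, Ndufb, Ndufc, Ndufs or Ndufv and a number, Uqcr, Cox4 to Cox8 or Atp5, together with Sdha, Sdhb, Sdhc and Sdhd. This rule used no measured value, though it was set with earlier results of these data known. It gave 84 of 43346 genes: 37 named for complex I, 4 for complex II, 8 for complex III, 18 for complex IV and 17 for complex V. Each of the 11 libraries came from a wildtype male C57BL/6 mouse aged 14 to 16 weeks. The 4 Control mice ate chow throughout. The 4 DDC mice ate the DDC diet, a porphyrin-raising diet that injures bile ducts, for 10 days. The 3 R15 mice had 10 days of the diet followed by 15 days of chow.

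Respiratory chain complexes I and II pass electrons from NADH and succinate to coenzyme Q, complex III passes them on to cytochrome c, and complex IV passes them to oxygen. Complexes I, III and IV move protons across the inner mitochondrial membrane, and complex V, the ATP synthase, makes ATP as the protons return. Core subunits carry the catalytic and redox centres, while accessory subunits surround them and serve assembly and stability. Most subunits are encoded in the nucleus, and some of those of complexes I, III, IV and V are encoded in mitochondrial DNA. The 13 mitochondrially encoded subunits are listed at 0 in every library, as are all 37 mitochondrial genes of the table, so the 2 genomes could not be compared.

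Expression is given as FPKM, fragments scaled to gene length and to the number of reads counted. The smallest library held 49339240 whole reads, recovered from the values, and the largest 72929107. A member that passed the filter on low values (3 or more libraries at FPKM 1 or above) had at least 139 reads in any library and a median of 4235.5. Of the 84 members 78 passed, namely 36 of 37 for complex I, 4 of 4 for II, 8 of 8 for III, 13 of 18 for IV and 17 of 17 for V. The summed FPKM of 12 cholangiocyte markers ranged over 8263 to 11207 in Control, 10156 to 11337 in DDC and 8898 to 9940 in R15, and Epcam itself stood at 290 ± 24.2, 406 ± 31.9 and 294 ± 9.19 (SD, n = 4, 4 and 3). The sum of 14 hepatocyte markers was 2998 to 3741 in Control, 1159 to 1733 in DDC and 1903 to 2602 in R15. It was carried by Alb (means of 2773, 1028 and 1731), and gene by gene 4 of the 14 rose and 3 fell in DDC against Control, with a median log2 change of 0.10. The sum of 12 macrophage markers was 209 to 241, 1606 to 2688 and 205 to 828, that of 10 endothelial markers 102 to 442, 15.4 to 47.8 and 64.6 to 224, and that of 8 B and plasma cell markers 92.3 to 166, 76.7 to 96.8 and 89.4 to 244. The sum of 15 pancreatic acinar markers ran from 9.80 to 8833 among the Control libraries, from 6.75 to 1116 in DDC and from 6.29 to 1441 in R15. No marker of these lists was at 0 throughout a group. The part of these other cell types in the results that follow was not tested, and in such samples fewer cells of a type and less RNA per cell cannot be told apart.

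The Control libraries differed among themselves. Control 1 and Control 3 were the highest 2 of the 4 Control libraries in 71 of the 78 members, and Control 3 was the highest of all 11 libraries in 59. The members took 0.857%, 0.730%, 0.909% and 0.764% of the reads of Control 1 to 4, 0.755%, 0.748%, 0.763% and 0.767% in DDC 1 to 4 and 0.662%, 0.662% and 0.711% in R15 1 to 3. Every R15 share was below every other share, whereas the DDC shares fell within the Control range. The median coefficient of variation over the members was 11.002% in Control, 2.87% in DDC and 5.20% in R15. Results against Control were therefore also computed without Control 1 and Control 3, an alternative chosen after seeing the data. These 2 libraries were picked on the member values themselves, so leaving them out shifts most changes against Control upward by construction. Calls lost or gained in this fit show dependence on the 2 libraries and are no independent check. Among the members chosen by the rule given with the processing, 5 calls were lost and 6 gained by this in DDC against Control, and 11 were lost and 0 gained in R15 against Control. The calls lost were those of Ndufb9, Sdhc, Uqcr10, Atp5a1 and Atp5h in DDC, and those of Ndufa4, Sdhc, Cox6a1, Cox6b1, Cox7a2, Cox7b, Atp5a1, Atp5h, Atp5k, Atp5g2 and Atp5g3 in R15. The 6 gained were rises of Sdhb, Sdhd, Cox5a, Cox7b, Atp5g1 and Atp5g2 in DDC.

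Summed by complex, the R15 libraries were the lowest. The sums are over members, and the name rule leaves out some nuclear subunits, among them Ndufab1 of complex I and Cyc1 of complex III. The members of complex I added up to 2079 ± 152 FPKM in Control, to 1896 ± 6.27 in DDC and to 1738 ± 88.1 in R15 (SD, n = 4, 4 and 3). For complex II the sums were 247 ± 27.9, 222 ± 6.27 and 203 ± 6.54, and for complex III 629 ± 84.5, 555 ± 15.6 and 487 ± 17.5. In complexes I to V alike each R15 library lay below each Control and each DDC library. Complex IV gave 1349 ± 190, 1249 ± 9.13 and 1071 ± 51.9, and complex V 1450 ± 163, 1389 ± 24.6 and 1179 ± 54.3. The DDC sums overlapped the Control range in complexes II to V, and in complex I all 4 DDC sums, 1890 to 1903, were under the lowest Control sum of 1940. That separation rested on Ndufa4, an abundant gene named for complex I: without it the Control sums ran from 1653 to 1937, the DDC sums from 1631 to 1659 and the R15 sums from 1435 to 1574, so that DDC overlapped Control and R15 stayed below both.

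**Figure D1:**
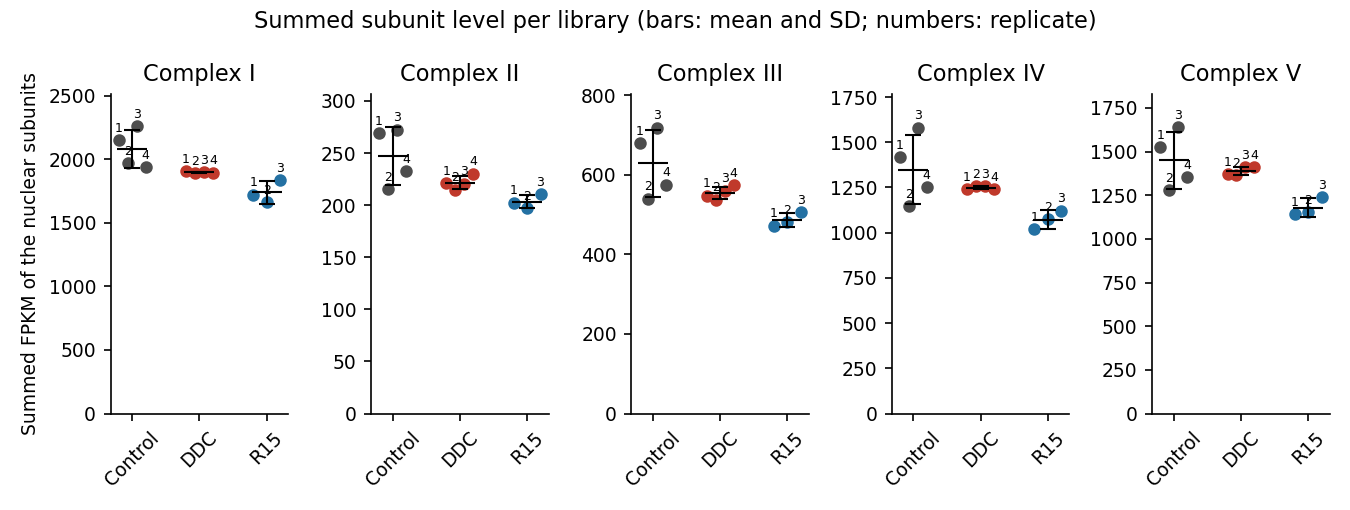
Summed FPKM of the nuclear subunits of each complex (vertical axis, from 0) in each library, with replicate numbers beside the points and bars for the mean and SD of 4 Control, 4 DDC and 3 R15 libraries. The R15 points are the lowest in all 5 panels, and Control 1 and Control 3 stand at the top of each Control group.

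Tests used log2(FPKM + 1) in limma over all 15264 genes that passed the filter, so changes of low genes are understated, and a gene is called at an adjusted p under 0.05. The 3 comparisons share libraries and are not independent of each other. Because the labels name no pairs of mice, the tests were unpaired, and p-values measure the spread between libraries within groups.

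In DDC against Control 6 of the 78 members rose and 24 fell, with a median log2 change of -0.08 and 54 of the 78 below 0. In this comparison 65.4% of all genes tested were called, 33.5% higher and 31.9% lower, with a median of 0.00 and 49.8% below 0. The members' share of falls, 30.8%, lay near that of all genes, whereas their share of rises, 7.69%, was lower. Without Control 1 and Control 3 the count turned to 23 of the 78 higher and 14 lower, with a median of 0.04. Of all genes in that fit 32.8% were called higher and 31.8% lower, with a median of 0.01. Without Control 3 alone 12 members rose, beside 33.7% of all genes. The direction of the members as a group under the DDC diet thus depended on which Control libraries were kept. Because Control 1 and Control 3 were picked for high member values, leaving them out had to raise most changes and cannot decide the direction.

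In R15 against Control limma called no member higher (0 at an unadjusted p and 0 by limma voom on whole reads) and 37 lower (66 and 35), with a median log2 change of -0.27 and 75 of the 78 below 0. Of all genes tested 9.58% were called, 6.87% higher and 2.72% lower, the median was 0.05, and 39.2% were below 0. In 56 members every R15 library was lower than every Control library, which held for 6.3% of all genes. The number called depended on single libraries: it was 4 without R15 1, 6 without R15 2, 21 without R15 3, 8 without Control 1, 20 without Control 3 and 57 without Control 2, and 17 to 23 when any 1 DDC library was left out of the shared fit. It was 7, with a median of -0.15, without Control 1 and Control 3. With only the Control and R15 libraries in the fit it was 0 (61 at an unadjusted p).

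In R15 against DDC 3 members rose and 38 fell, with a median log2 change of -0.18 and 65 of the 78 below 0. For all genes the median was 0.04 and 46.8% were below 0. Among them 62.2% were called, 33.4% higher and 28.8% lower. In 50 members all R15 libraries were lower than all DDC libraries, which held for 31% of all genes. This comparison uses no Control library beyond the shared spread, and without Control 1 and Control 3 the counts were 4 higher and 48 lower. Rescaling each library to one FPKM total moved the median of all genes from 0.04 to 0.14 and the members' counts to 9 higher and 25 lower, the members' median staying 0.20 below that of all genes. Counts by complex below stand beside the shares of all genes given above for the same comparison. Each count of 0 that follows for a single complex was also 0 at an unadjusted p and by voom.

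**Figure D2:**
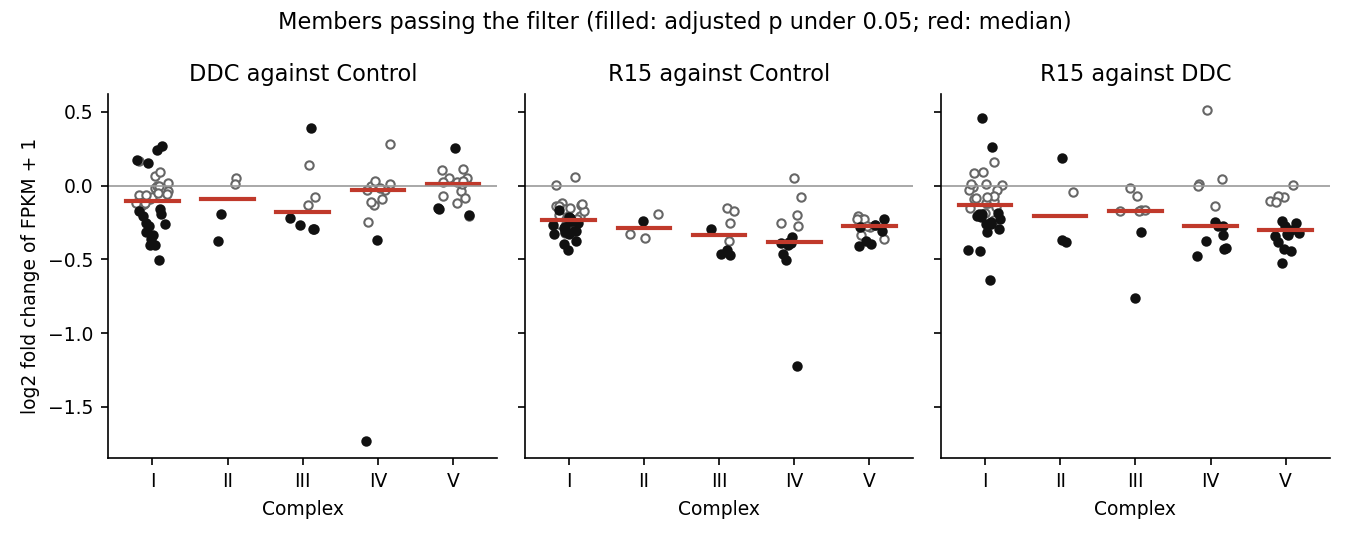
Log2 fold change of FPKM + 1 (vertical axis) of each of the 78 members that passed the filter, by complex, for the 3 comparisons, with filled points for an adjusted p under 0.05 in limma and red lines at the medians. Against Control the R15 points lie below 0 in all but 3 members, and the lowest point in the first 2 panels is Cox7a1.

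In DDC against Control 4 of the 36 complex I members rose and 13 fell, in R15 against Control 0 rose and 17 fell, and in R15 against DDC 2 rose and 14 fell, with medians of -0.10, -0.24 and -0.13. All 17 of the R15 falls against Control were among the 29 accessory subunits. Both counts take in Ndufa4, which is named for complex I but known as a component of complex IV. Of the 7 core subunits limma called none in R15 against Control (5 at an unadjusted p, 0 by voom), although all 7 lay below 0 (from -0.28 to -0.12). The difference between the 2 kinds was not tested.

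Ndufs7, a core subunit that carries the last iron-sulfur cluster before the quinone site (mm10 chr10:80249121-80256794), stood at 39.1, 33.9, 39.9 and 31.9 FPKM in Control 1 to 4, at 24.3, 24.4, 26.1 and 25.6 in DDC 1 to 4 and at 29.5, 29.8 and 31.4 in R15 1 to 3. The 3 groups did not overlap, with R15 between the others. Its log2 change was -0.51 ± 0.07 (SE) in DDC against Control (limma adjusted p = 1e-04) and 0.26 ± 0.07 in R15 against DDC (limma adjusted p = 0.011), while the -0.25 of R15 against Control was not called (limma adjusted p = 0.063). Another core iron-sulfur subunit, Ndufs8, went the other way in the DDC libraries: its mean was 56.9 ± 7.15 FPKM in Control, 63.7 ± 1.83 under DDC and 46.7 ± 3.35 after R15 (SD, n = 4, 4 and 3), and of its changes the fall of R15 from DDC, -0.44 ± 0.09, was called (limma adjusted p = 0.0014).

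Ndufb2, an accessory subunit of the membrane arm (chr6:39592574-39603382), was the lowest of the complex that passed. It stood at 4.96, 4.99, 5.98 and 5.32 FPKM in Control 1 to 4, at 3.99, 4.05, 3.64 and 3.43 in DDC 1 to 4 and at 5.16, 5.43 and 6.10 in R15 1 to 3. All DDC libraries were below all others, and R15 spanned much the same range as Control. The log2 change was -0.40 ± 0.07 (SE) in DDC against Control (limma adjusted p = 6.3e-04), 0.06 ± 0.08 in R15 against Control (limma adjusted p = 0.65) and 0.46 ± 0.08 in R15 against DDC (limma adjusted p = 5.5e-04). The labels do not say whether reads were counted by strand. Ndufb2 overlaps Braf on the opposite strand, and 27 members overlap another gene that reaches FPKM 1 in some library, 10 of them on the same strand, so their values are less certain.

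Its promoter is shown because the series' title names NF-Y, a factor that binds CCAAT boxes. Bases are from the RefSeq window of GRCm38.p6, the assembly also called mm10, 250 bases before the annotated start, less any base that GENCODE M21 places in an exon. They read 5′ to 3′ along the gene's strand, and capitals mark CCAAT or CCGGAA (the core bound by ETS factors such as GABP) on either strand. The window of Ndufb2 at chr6:39592315-39592564 (plus strand) holds 1 CCAAT, 79 bases before the start.
Ndufb2: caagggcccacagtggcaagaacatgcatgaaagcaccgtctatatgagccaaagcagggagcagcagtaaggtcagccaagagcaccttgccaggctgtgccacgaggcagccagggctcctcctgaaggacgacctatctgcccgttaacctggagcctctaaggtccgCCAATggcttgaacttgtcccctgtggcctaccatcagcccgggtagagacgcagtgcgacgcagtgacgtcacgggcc

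Ndufa1, a small accessory subunit needed for assembly (chrX:37187588-37191163), showed the opposite order. It stood at 64.3, 53.8, 70.7 and 58.7 FPKM in Control 1 to 4, at 75.4, 71.6, 70.5 and 74.1 in DDC 1 to 4 and at 45.6, 45.8 and 48.1 in R15 1 to 3. R15 was below all other libraries, while DDC 3 was just under Control 3. It rose in DDC against Control by 0.24 ± 0.07 (SE) on the log2 scale (limma adjusted p = 0.014) and fell in R15, with -0.40 ± 0.08 against Control (limma adjusted p = 0.015) and -0.64 ± 0.08 against DDC (limma adjusted p = 7.9e-05). Without R15 1 the change against Control was no longer called.

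Ndufa10, another accessory subunit, had the largest rise of the complex in DDC against Control. Its values were 21.2, 18.1, 24.0 and 18.5 FPKM in Control, 24.5, 24.8, 25.3 and 24.3 in DDC and 19.8, 20.5 and 21.1 in R15. DDC was above all other libraries, and R15 lay within the Control range. Its log2 change came to 0.27 ± 0.08 (SE) in DDC against Control (limma adjusted p = 0.0097), 0.01 in R15 against Control (limma adjusted p = 0.97) and -0.26 ± 0.08 in R15 against DDC (limma adjusted p = 0.017), the last not called without R15 1.

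Ndufb9, an accessory subunit of the membrane arm, had the largest fall of the complex in R15 against Control. It stood at 142, 119, 150.04 and 127 FPKM in Control, at 115, 109, 109 and 114 in DDC and at 98.8, 91.7 and 105 in R15. The 3 groups did not overlap and ran from Control down to R15. The log2 change was -0.26 ± 0.07 (SE) in DDC against Control (limma adjusted p = 0.0099), -0.44 ± 0.08 in R15 against Control (limma adjusted p = 0.0097) and -0.18 ± 0.08 in R15 against DDC (limma adjusted p = 0.062). Without Control 1 and Control 3 the fall in DDC was not called, whereas the fall in R15 against Control was.

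Ndufa4 carries a complex I name but is known as a component of complex IV, and it was the most abundant gene named for complex I. It stood at 302, 313, 320.4 and 271 FPKM in Control, at 259, 258, 244 and 234 in DDC and at 245, 226 and 260.4 in R15. All DDC and R15 libraries were below all Control libraries. On the log2 scale the change was -0.28 ± 0.07 (SE) in DDC (limma adjusted p = 0.0046) and -0.31 ± 0.07 in R15 (limma adjusted p = 0.031), each against Control, the latter lost without Control 1, Control 3, R15 1 or R15 2. Its paralog Ndufa4l2, known as a hypoxia-induced form, did not pass the filter and reached at most 0.505 FPKM.

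Complex II, which is also succinate dehydrogenase of the citric acid cycle, has no mitochondrially encoded subunit, so all of it was measured. Sdha, the flavoprotein that oxidises succinate (chr13:74322254-74350280), stood at 99.3, 84.7, 96.8 and 90.6 FPKM in Control 1 to 4, at 72.0, 69.7, 69.3 and 74.2 in DDC 1 to 4 and at 81.1, 77.9 and 84.4 in R15 1 to 3. The groups did not overlap, with DDC lowest. The log2 change was -0.37 ± 0.05 (SE) in DDC against Control (limma adjusted p = 1.4e-04), -0.19 ± 0.06 in R15 against Control (limma adjusted p = 0.065) and 0.18 ± 0.06 in R15 against DDC (limma adjusted p = 0.017). The last of these was not called without R15 3 or with median-of-ratios scaling.

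Sdhb, the iron-sulfur subunit, had another pattern. It stood at 34.5, 28.5, 38.5 and 29.5 FPKM in Control, at 33.6, 32.9, 33.9 and 34.8 in DDC and at 26.4, 23.9 and 26.7 in R15. DDC lay within the Control range and R15 was below both. Its changes were 0.05 ± 0.09 (SE), -0.33 ± 0.09 and -0.38 ± 0.09 on the log2 scale in the 3 comparisons, of which R15 against DDC was called (limma adjusted p = 0.0044). The change in DDC against Control was 0.21 without Control 1 and Control 3, and was then called.

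The membrane anchors Sdhc and Sdhd hold the quinone site and a heme. Sdhc stood at 41.7, 36.1, 42.1 and 36.3 FPKM in Control, at 34.1, 33.4, 33.2 and 34.8 in DDC and at 31.3, 32.8 and 34.3 in R15. Both later groups lay under Control, and the log2 changes of -0.20 ± 0.06 (SE) in DDC (limma adjusted p = 0.012) and -0.24 ± 0.06 in R15 (limma adjusted p = 0.037) were called, neither of them without Control 1 and Control 3. The second was also lost without Control 1, Control 3 or any 1 of the DDC or R15 libraries. Sdhd stood at 93.6, 66.1, 94.9 and 76.6 in Control, at 81.4, 79.0, 84.3 and 86.3 in DDC and at 63.7, 62.7 and 64.9 in R15. As with Sdhb, R15 was below all other libraries, and the change from DDC to R15, -0.37 ± 0.11, was called (limma adjusted p = 0.014). Sdhd was called higher in DDC against Control, at 0.21, without Control 1 and Control 3.

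**Figure D3:**
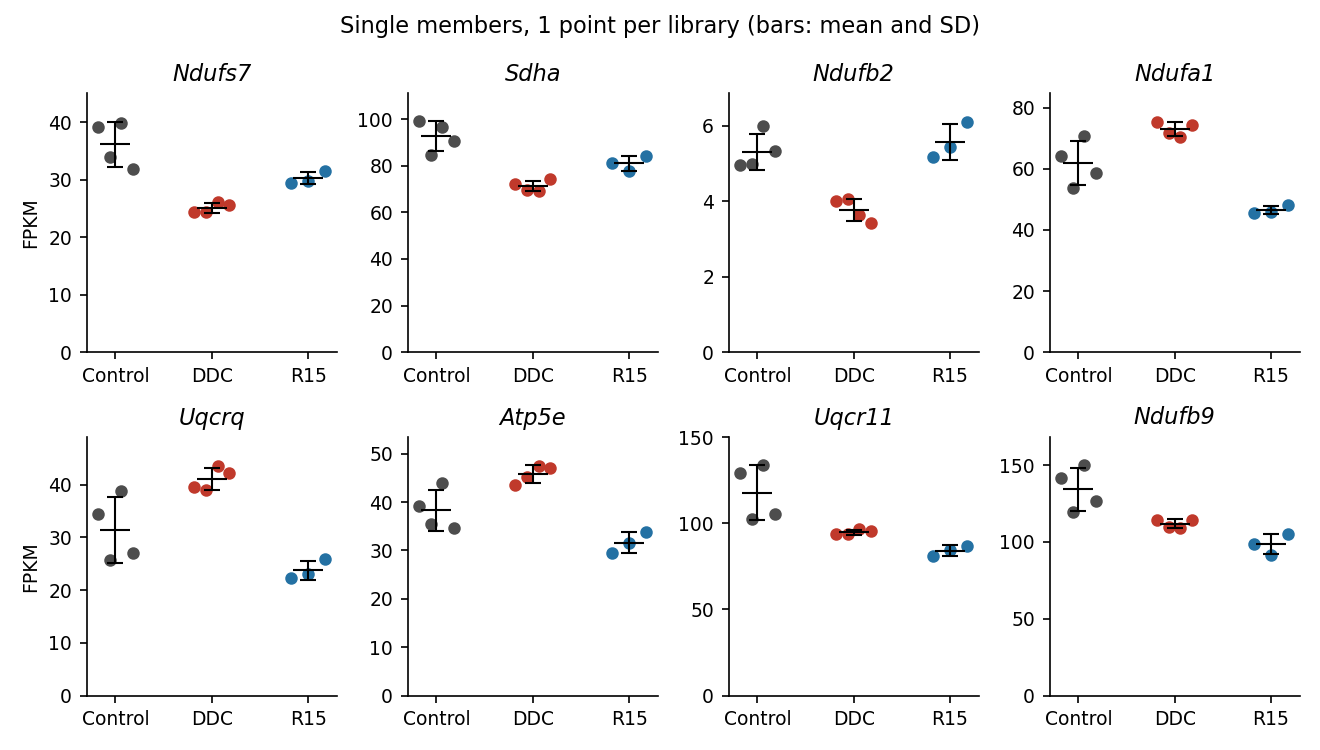
FPKM (vertical axes, from 0) of 8 members in each of the 4 Control, 4 DDC and 3 R15 libraries, with bars for mean and SD. Ndufs7, Sdha and Ndufb2 are lowest in DDC, Ndufa1, Uqcrq and Atp5e have the lowest mean in R15 and the highest in DDC, and Uqcr11 and Ndufb9 step down from Control to DDC to R15.

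In complex III 1 of 8 members rose and 4 fell in DDC against Control, 0 rose and 4 fell in R15 against Control, and 0 rose and 2 fell in R15 against DDC, with medians of -0.18, -0.33 and -0.17. The 5 accessory subunits were all called in DDC against Control, where 65.4% of all genes were called. The 3 other members, the core proteins Uqcrc1 and Uqcrc2 and the Rieske iron-sulfur protein Uqcrfs1, were not. The log2 changes of these 3 were 0.14, -0.13 and -0.08 in DDC and -0.17, -0.15 and -0.25 in R15, each against Control. The difference between the 2 kinds was not tested.

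Uqcr11, one of the smallest accessory subunits (chr10:80402997-80406830), stood at 129, 103, 134 and 105 FPKM in Control 1 to 4, at 93.7, 93.5, 96.5 and 95.6 in DDC 1 to 4 and at 80.7, 84.3 and 87.1 in R15 1 to 3. The groups stepped down from Control to DDC to R15 with no overlap. The change in log2 was -0.30 ± 0.08 (SE) in DDC against Control (limma adjusted p = 0.0087), -0.47 ± 0.09 in R15 against Control (limma adjusted p = 0.013) and -0.17 ± 0.09 in R15 against DDC (limma adjusted p = 0.11). The fall in R15 against Control was called whichever 1 library was left out. Uqcr10, another small accessory subunit and the highest of the complex in Control, ran alongside at 126 ± 15.8, 104 ± 4.03 and 92.0 ± 3.00 FPKM (SD, n = 4, 4 and 3), with called log2 changes of -0.27 ± 0.08 in DDC (limma adjusted p = 0.012) and -0.44 ± 0.09 in R15 (limma adjusted p = 0.015). The first was lost without Control 1 and Control 3, and the second without R15 1.

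Uqcrq, the ubiquinone-binding accessory subunit (chr11:53427922-53430831), was the member that rose. It stood at 34.3, 25.7, 38.8 and 27.0 FPKM in Control, at 39.6, 38.9, 43.5 and 42.2 in DDC and at 22.3, 23.1 and 25.8 in R15. DDC was above all other libraries, though DDC 2 only just above Control 3, and R15 3 was just above the lowest Control library. The log2 change was 0.39 ± 0.12 (SE) in DDC against Control (limma adjusted p = 0.014), -0.37 ± 0.13 in R15 against Control (limma adjusted p = 0.091) and -0.77 ± 0.13 in R15 against DDC (limma adjusted p = 5.1e-04), the largest called fall of any member in the last comparison.

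The promoter of Uqcr11 is shown as that of a member that stepped down in both groups. Its window at chr10:80406831-80407071 (minus strand) ends 9 bases before the start and holds 2 CCGGAA, 66 and 32 bases before the start, and no CCAAT.
Uqcr11: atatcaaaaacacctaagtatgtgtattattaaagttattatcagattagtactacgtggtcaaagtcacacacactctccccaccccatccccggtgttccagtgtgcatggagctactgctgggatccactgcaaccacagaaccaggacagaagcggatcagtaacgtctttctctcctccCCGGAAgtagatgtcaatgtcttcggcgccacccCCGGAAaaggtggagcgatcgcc

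Complex IV, cytochrome c oxidase, held the member with the largest change. Cox7a1, the form of subunit 7a typical of heart and skeletal muscle (chr7:30184171-30186028), stood at 66.5, 28.5, 39.4 and 31.5 FPKM in Control 1 to 4, at 11.3, 10.98, 10.1 and 12.1 in DDC 1 to 4 and at 16.4, 14.6 and 17.9 in R15 1 to 3. No group overlapped another: the lowest Control library was above the highest R15 library, and the lowest R15 library above the highest DDC library. Its log2 change came to -1.73 ± 0.22 (SE) in DDC against Control (limma adjusted p = 6e-05) and -1.22 ± 0.23 in R15 against Control (limma adjusted p = 0.014). R15 against DDC gave 0.51 ± 0.23, which was not called (limma adjusted p = 0.080).

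Control 1 was far above the other Control libraries in Cox7a1, and without Control 1 and Control 3 the log2 changes were -1.36 and -0.85, both called, and 0.51, then called as well. The acinar marker sum was 8833, 2349, 1029 and 9.80 FPKM in Control 1 to 4 and the endothelial sum 102, 134, 442 and 313, so Control 1 had the highest of the one and the lowest of the other. Cox7a1 stood at 66.5, 28.5, 39.4 and 31.5 FPKM in the same 4 libraries. All 10 endothelial markers fell in DDC against Control. In R15 against Control limma called 0 of the 10 (0 at an unadjusted p, 0 by voom), although all 10 were below 0 with a median log2 change of -0.44. The part of acinar or endothelial cells in the Cox7a1 result was not tested.

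Cox7a2, the form of the same subunit found in liver and most tissues (chr9:79755241-79759853), stood at 103, 79.3, 108 and 86.1 FPKM in Control, at 86.2, 84.5, 86.1 and 89.2 in DDC and at 71.3, 68.2 and 74.2 in R15. DDC lay within the Control range and R15 below both. The log2 changes were -0.11 (limma adjusted p = 0.29), -0.39 ± 0.09 (limma adjusted p = 0.033) and -0.28 ± 0.09 (limma adjusted p = 0.026). Leaving out R15 1 or R15 2 ended both calls, leaving out DDC 4 the second, and leaving out Control 1, Control 3, R15 3 or any 1 of DDC 1 to 3 the first. Cox7a1 made up 29.8% ± 6.23 of the summed FPKM of the pair in the Control libraries, 11.4% ± 0.651 of it in DDC and 18.6% ± 0.923 of it in R15 (SD, n = 4, 4 and 3), without overlap. Cox7a2l, a related protein that joins complexes III and IV, showed no called change, at 124 ± 9.33, 117 ± 3.31 and 118 ± 5.26 FPKM.

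The promoters of the pair are shown because the genes encode forms of 1 subunit and differed in level and response. That of Cox7a1, at chr7:30183921-30184143 (plus strand), ends 27 bases before the start and holds 2 CCAAT, read here as ATTGG, 137 and 74 bases before the start. That of Cox7a2, at chr9:79759879-79760103 (minus strand), ends 25 bases before the start and holds 1 CCGGAA, read as TTCCGG, 172 bases before the start.
Cox7a1: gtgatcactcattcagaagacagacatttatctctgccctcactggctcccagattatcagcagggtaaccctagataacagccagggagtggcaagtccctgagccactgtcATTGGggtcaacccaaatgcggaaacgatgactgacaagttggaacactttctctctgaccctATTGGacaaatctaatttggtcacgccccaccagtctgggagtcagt
Cox7a2: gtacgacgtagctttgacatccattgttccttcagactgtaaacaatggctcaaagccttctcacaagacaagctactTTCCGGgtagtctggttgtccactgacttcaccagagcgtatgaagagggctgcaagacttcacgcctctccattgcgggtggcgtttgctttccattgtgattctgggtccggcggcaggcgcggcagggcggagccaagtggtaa

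**Figure D4:**
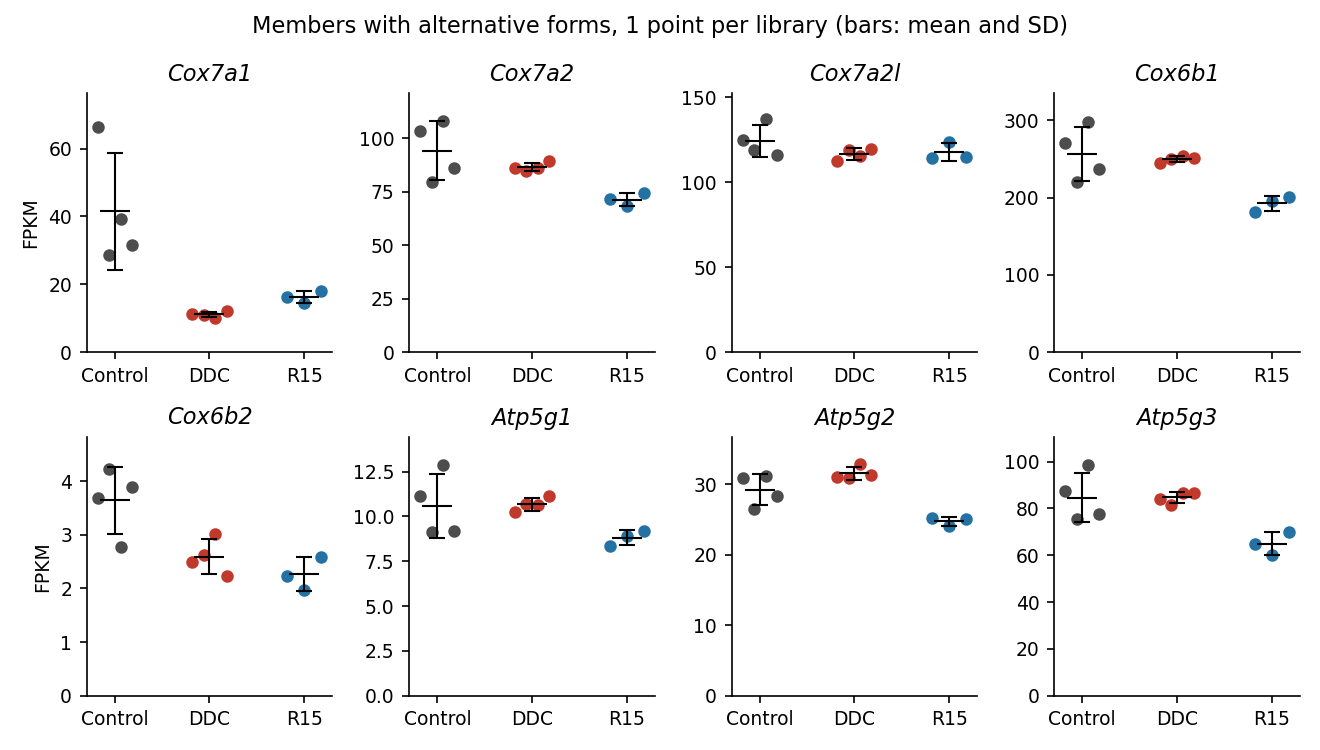
FPKM (vertical axes, from 0) of members that encode alternative forms of a subunit, in each of the 4 Control, 4 DDC and 3 R15 libraries, with bars for mean and SD. Cox7a1 separates all 3 groups, Cox7a2, Cox6b1 and the 3 subunit c genes are lowest in R15, and Cox7a2l shows little spread between groups.

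In complex IV 0 of 13 members rose and 2 fell, Cox7a1 and Cox6b2, in DDC against Control, 0 rose and 8 fell in R15 against Control, and 0 rose and 8 fell in R15 against DDC, with medians of -0.03, -0.38 and -0.27. Cox6b1, which faces the intermembrane space and was the highest member of the complex in Control, stood at 271, 219.6, 298 and 237 FPKM in Control, at 244, 249.6, 254 and 252 in DDC and at 182, 196 and 200.5 in R15. R15 was below all other libraries and DDC within the Control range, and the log2 change of R15 was -0.40 ± 0.09 (SE) against Control (limma adjusted p = 0.027) and -0.37 ± 0.09 against DDC (limma adjusted p = 0.0054). Cox7b gave the same order, at 65.0 ± 10.3, 63.0 ± 2.17 and 46.5 ± 2.17 FPKM (SD, n = 4, 4 and 3), with -0.46 ± 0.10 against Control (limma adjusted p = 0.025) and -0.43 ± 0.10 against DDC (limma adjusted p = 0.0046). The calls against Control were lost without Control 1, R15 1 or R15 2, and that of Cox6b1 also without R15 3. Without Control 1 and Control 3 neither was called, and Cox7b was called higher in DDC against Control, at 0.16.

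Cox4i1, the common form of the regulatory subunit 4, stood at 188, 158, 193 and 159 FPKM in Control, at 170.1, 170.1, 170.1 and 185 in DDC and at 137, 148 and 146 in R15. Its change was called in R15 against DDC, -0.27 ± 0.08 (SE; limma adjusted p = 0.012), and not against Control (limma adjusted p = 0.055), and it was lost without R15 1. Cox4i1 overlaps Gm20388 on the same strand, which reached 76.9 FPKM, so the 2 may share reads. Cox5a, which sits on the matrix side, stood at 62.6, 47.1, 81.1 and 55.0 in Control, at 70.8, 74.5, 75.0 and 73.8 in DDC and at 44.5, 56.7 and 57.02 in R15. The Control libraries spread over the other 2 groups, and the change called was R15 against DDC, -0.48 ± 0.16 (limma adjusted p = 0.021), which was lost without R15 1. Without Control 1 and Control 3 Cox5a was called higher in DDC against Control, at 0.52. Cox5b and Cox8a were called in no comparison.

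Of the tissue-restricted forms of complex IV, Cox7a1 and Cox6b2 passed the filter. Cox6b2, a form known from testis, was at 3.69, 4.23, 2.78 and 3.89 FPKM in Control, at 2.498, 2.63, 3.02 and 2.23 in DDC and at 2.24, 1.96 and 2.60 in R15. It overlapped between Control and DDC through Control 3, and its log2 changes against Control of -0.37 ± 0.11 (SE; limma adjusted p = 0.014) and -0.50 ± 0.12 (limma adjusted p = 0.030) were called, the second not without Control 1, Control 4, DDC 2, R15 1 or R15 2. It made up 1.44% ± 0.413 (SD, n = 4) of the summed FPKM of the Cox6b pair in Control. The lung and hypoxia form Cox4i2 ranged from 0.0521 to 0.659 FPKM, the muscle form Cox6a2 reached at most 0.263, Cox7b2 had 3 reads in all libraries together, and Cox8b and Cox8c are listed at 0 in all 11.

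In complex V, the ATP synthase, 1 of 17 members rose and 3 fell in DDC against Control, 0 rose and 7 fell in R15 against Control, and 0 rose and 12 fell in R15 against DDC, with medians of 0.01, -0.27 and -0.30. The falls of R15 from DDC took in 3 of 3 genes of the c-ring, the rotor that protons turn, 5 of 5 of the other membrane part, 2 of 4 of the peripheral stalk and 2 of 5 of the F1 head, where ATP is made. No test compared these parts of the enzyme with each other.

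Atp5e, the epsilon subunit at the base of the F1 head (chr2:174461072-174464105), stood at 39.2, 35.4, 43.9 and 34.6 FPKM in Control 1 to 4, at 43.5, 45.2, 47.5 and 47.1 in DDC 1 to 4 and at 29.4, 31.6 and 33.7 in R15 1 to 3. R15 was below all other libraries, and DDC 1 was just below Control 3. The log2 change was 0.26 ± 0.07 (SE) in DDC against Control (limma adjusted p = 0.011), -0.27 ± 0.08 in R15 against Control (limma adjusted p = 0.064) and -0.52 ± 0.08 in R15 against DDC (limma adjusted p = 3e-04), the largest fall of the complex. The larger F1 subunit Atp5a1, alpha, had the highest Control mean of complex V and stood at 280.4, 250.3, 295 and 258 FPKM in Control, at 243, 237, 245 and 246 in DDC and at 225, 217 and 234 in R15. It stepped down without overlap, with log2 changes of -0.16 ± 0.06 in DDC (limma adjusted p = 0.032) and -0.26 ± 0.06 in R15 (limma adjusted p = 0.027) against Control. The first of these calls was lost without Control 1, Control 3 or any 1 of the DDC libraries, and the second without Control 1, R15 1 or R15 2.

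The promoter of Atp5e, a member that rose in DDC, is shown beside those above. The window at chr2:174464106-174464351 (minus strand) ends 4 bases before the start and holds CCGGAA 101 bases and CCAAT 84 and 55 bases before the start.
Atp5e: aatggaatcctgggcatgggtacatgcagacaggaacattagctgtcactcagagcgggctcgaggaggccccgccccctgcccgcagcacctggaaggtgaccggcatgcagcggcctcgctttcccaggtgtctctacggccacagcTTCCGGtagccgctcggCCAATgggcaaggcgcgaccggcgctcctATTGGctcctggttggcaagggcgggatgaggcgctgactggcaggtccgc

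Atp5g1, Atp5g2 and Atp5g3 encode the same mature subunit c with different targeting peptides. Atp5g3 was the most abundant of them, at 87.3, 75.4, 98.6 and 77.5 FPKM in Control, at 84.3, 81.7, 86.8 and 86.5 in DDC and at 64.8, 60.02 and 69.9 in R15. Atp5g2 stood at 30.9, 26.5, 31.2 and 28.3 in Control, at 31.1, 31.0, 32.9 and 31.4 in DDC and at 25.2, 24.1 and 25.1 in R15, and Atp5g1 at 10.6 ± 1.80, 10.7 ± 0.364 and 8.81 ± 0.426 (SD, n = 4, 4 and 3). In Atp5g2 and Atp5g3 R15 was below all other libraries, and no change of the 3 genes was called in DDC against Control. In R15 against Control the log2 change was -0.37 ± 0.09 (SE) for Atp5g3 (limma adjusted p = 0.030) and -0.23 ± 0.06 for Atp5g2 (limma adjusted p = 0.033). Neither was called without Control 1 and Control 3, and there Atp5g1 and Atp5g2 were called higher in DDC against Control, each at 0.20.

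Against DDC the log2 change in R15 was -0.38 ± 0.09 (SE) for Atp5g3 (limma adjusted p = 0.0035), -0.34 ± 0.06 for Atp5g2 (limma adjusted p = 4.7e-04) and -0.25 ± 0.10 for Atp5g1 (limma adjusted p = 0.049). The last was lost without Control 1 or any 1 of the DDC or R15 libraries. The shares of the 3 genes in their summed FPKM moved little: Atp5g3 held 68.0%, 66.7% and 65.9% in Control, DDC and R15, Atp5g2 23.6%, 24.9% and 25.2%, and Atp5g1 8.45%, 8.41% and 8.95%. These genes are near-identical in part and reads could be split between them, as for members with processed pseudogenes, 10 of which carry matching names and reach at most 4.54 FPKM.

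The peripheral stalk of complex V holds the head still, and small membrane subunits link enzymes to each other. Atp5h, subunit d of the stalk, averaged 76.8 ± 6.61 FPKM in Control, 66.6 ± 2.16 under DDC and 63.1 ± 4.78 after R15 (SD, n = 4, 4 and 3), with log2 changes of -0.20 ± 0.07 in DDC (limma adjusted p = 0.023) and -0.28 ± 0.07 in R15 (limma adjusted p = 0.039), the former lost without Control 1, Control 3, DDC 1 or DDC 2 and the latter on leaving out any 1 library other than Control 2. Atp5k, subunit e of the membrane part, stood at 72.3, 58.1, 81.7 and 60.9 in Control, at 64.6, 63.4, 65.4 and 64.2 in DDC and at 48.3, 49.6 and 54.0 in R15. R15 was below all other libraries, and the log2 change was -0.41 ± 0.10 against Control (limma adjusted p = 0.034) and -0.34 ± 0.10 against DDC (limma adjusted p = 0.014). Without Control 1, or without any 1 of the DDC or R15 libraries, the call against Control was lost, and without R15 1 that against DDC.

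Calls of single members differed in how far they held when each library was left out in turn. Among the members chosen by the rule given with the processing, of the 16 called in DDC against Control 14 stayed called throughout, of the 17 called in R15 against Control 3 did (Cox7a1, Ndufb9 and Uqcr11), and of the 19 called in R15 against DDC 11 did. Members with a gene length up to 1500 bases (43) had medians of -0.12, -0.31 and -0.18, in the order of comparisons used above, and the 35 longer ones -0.04, -0.23 and -0.18. For the 1417 other protein-coding genes of up to 1500 bases the medians were 0.08, -0.02 and -0.13, and for the 3261 others with a mean FPKM of at least 20 they were 0.02, -0.00 and -0.03.

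Genes that build or feed the chain were counted beside the 9.58% of all genes called in R15 against Control and the 65.4% called in DDC against Control. By direction these were 6.87% higher and 2.72% lower in R15 against Control, and 33.5% and 31.9% in DDC against Control. Of 15 assembly factors of complex I limma called none in R15 against Control (2 at an unadjusted p, 0 by voom), with a median log2 change of -0.04, and in DDC against Control 1 rose and 4 fell. The 24 assembly factors of complex IV had 3 rises and 10 falls in DDC against Control and 2 falls, Coa3 and Higd2a, in R15 against Control. The assembly factors of complexes II, III and V (4, 5 and 6 tested) had 1, 1 and 0 rises and 2, 2 and 2 falls in DDC, and 1 fall among them in R15 against Control, that of the ATP synthase inhibitor Atpif1 (-0.25 ± 0.05 SE; limma adjusted p = 0.022). No test compared these lists with the subunits.

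The assembly factors that follow were picked as the largest called rise or fall of their list in DDC against Control. They do not stand for the lists, whose median log2 changes were -0.13 (complex II), -0.10 (complex I) and -0.08 (complex IV). Sdhaf1, which helps insert iron-sulfur clusters into Sdhb, had means of 2.70, 5.92 and 3.12 FPKM in Control, DDC and R15 (log2 change in DDC 0.90 ± 0.07 SE; limma adjusted p = 1.9e-06). Acad9, a complex I assembly factor, went from 20.8 to 14.3 and stood at 20.2 in R15 (-0.51 ± 0.04; limma adjusted p = 5.1e-06). Cox14, a complex IV assembly factor, went from 63.9 to 42.7 and stood at 55.3 in R15 (-0.57 ± 0.05; limma adjusted p = 9.3e-06). The picks of the same lists in the other direction were Sdhaf3, Foxred1 and Higd1a. Sdhaf3 went from 1.37 in Control to 1.05 in DDC and stood at 1.40 in R15. Foxred1 went from 5.91 to 7.035 and stood at 5.31, and Higd1a went from 9.36 to 12.9 and stood at 8.36.

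Cycs, somatic cytochrome c, stood at 8.32, 10.9 and 6.09 FPKM in Control, DDC and R15, a log2 change of 0.37 ± 0.10 (SE) in DDC against Control (limma adjusted p = 0.0087) and -0.75 ± 0.11 in R15 against DDC (limma adjusted p = 2.4e-04). Of 13 coenzyme Q genes 4 rose and 6 fell in DDC against Control, where 33.5% of all genes rose and 31.9% fell, and 1 rose, Coq8b, in R15 against Control. Coq10b, a coenzyme Q-binding protein, went from 3.25 to 8.25 FPKM and Coq8a, a kinase-like protein of coenzyme Q synthesis, from 15.9 to 5.61, log2 changes of 1.12 ± 0.06 (limma adjusted p = 3.8e-07) and -1.35 ± 0.11 (limma adjusted p = 2.8e-06). Their means in R15 were 3.405 and 16.0 FPKM.

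Of 21 regulators of mitochondrial genes 3 rose and 7 fell in DDC against Control, 2 rose and 1 fell in R15 against Control, and 10 rose and 4 fell in R15 against DDC. In these comparisons 33.5%, 6.87% and 33.4% of all genes rose and 31.9%, 2.72% and 28.8% fell. The list's median log2 changes were -0.09, 0.07 and 0.09. Its largest called rise in DDC against Control was Pprc1, at 5.89, 8.47 and 6.60 FPKM in Control, DDC and R15. The largest called fall was Ppargc1a, the coactivator PGC-1 alpha, at 9.10, 2.56 and 7.35 FPKM. Its log2 change was -1.50 ± 0.11 (SE) in DDC against Control (limma adjusted p = 2.1e-06) and 1.21 ± 0.12 in R15 against DDC (limma adjusted p = 2.2e-05). Esrra, the nuclear receptor that works with it, was the regulator that fell in R15 against Control, with a log2 change of -0.47 ± 0.11 (limma adjusted p = 0.029). Gabpa, a subunit of the ETS factor GABP, changed by -0.25 ± 0.04 in DDC (limma adjusted p = 3.1e-04) and 0.19 ± 0.04 in R15 (limma adjusted p = 0.026) against Control, and Twnk, the mitochondrial helicase, by 0.20 ± 0.05 in R15 (limma adjusted p = 0.029).

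The citric acid cycle had 3 rises and 7 falls among 17 genes in DDC against Control. In R15 against Control limma called none of the 17 (8 at an unadjusted p, 0 by voom), although all were below 0 with a median of -0.15. The 78 proteins of the mitochondrial ribosome, which makes the mitochondrially encoded subunits, had 29 rises and 9 falls in DDC against Control, 0 and 2 in R15 against Control and 3 and 37 in R15 against DDC, with medians of 0.07, -0.08 and -0.14. In these comparisons 33.5%, 6.87% and 33.4% of all genes rose and 31.9%, 2.72% and 28.8% fell. The 29 rises, 37.2% of the list, thus lay near the share of all genes.

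**Figure D5:**
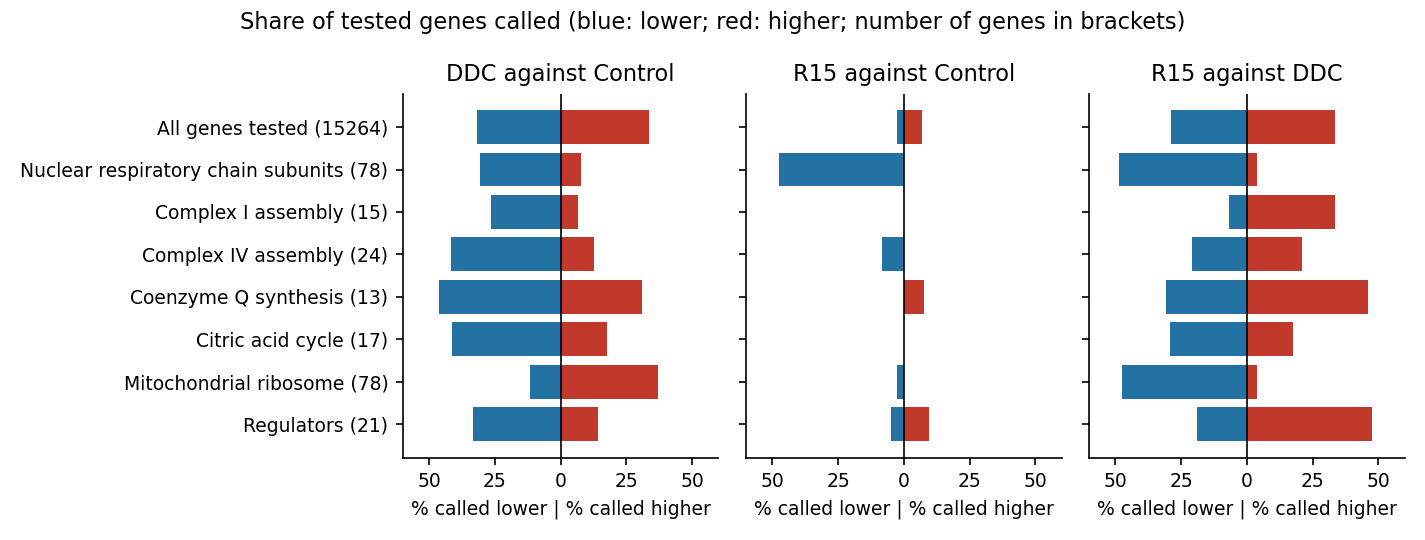
Share of the genes tested that limma called lower (blue, leftward) or higher (red, rightward), in percent, for all genes, the nuclear subunits and 6 related lists, with the number of genes in brackets. In R15 against Control the subunits show 37 of 78 called lower, beside 2.72% of all genes.

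Promoter windows of 300 bases, 250 before to 50 after the start, were found in RefSeq for 68 of the 84 members, taking the first listed window of a gene. Both strands were searched for 4 motifs, none of which contains another. CCAAT, bound by NF-Y, was in 30 of 68 windows, 44.1%, and in 37.9% of the windows of 27025 genes. CCGGAA was in 26 of 68 windows, 38.2%, and in 15.2% of those of all genes. A longer motif of the factor NRF1 was in 5 of 68 windows, 7.35%, and in 0.977% of those of all genes. That of the factor YY1 was in 4, 5.88%, and in 0.699%. A match describes letters in a window and says nothing about binding in these cells.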

How the data were processed

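Sequencing libraries were made with a stranded mRNA kit from RNA of EpCAM-selected liver cells, per the labels' protocols. The authors' deposited file gives FPKM, scaled for gene length and library size by them, beside each gene's ID, type, length and position. Submitters' processing notes name mm10 as the genome. Nothing used here names the aligner, the counting program or the gene model release. Each FPKM times the gene length plus 1 was a whole multiple of the library's smallest such product, for 100% of nonzero values within 0.001 (worst distance 5.3e-07). That multiple was taken as reads, an inference from the values, and served for depth and 1 alternative.

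The main test was limma 3.58.1 (R 4.3.3) on log2(FPKM + 1) with 3 groups in 1 fit of 11 libraries, empirical Bayes variances following the mean, and Benjamini-Hochberg adjustment over 15264 genes. It was first tested on simulated data. Members described in detail were, per complex, the highest in Control and the called members with the largest rise and fall in each comparison, all Sdh genes and alternative forms of a subunit. For the pathway lists the largest called rise and fall in DDC against Control were picked. Several of these picks, among them those of the citric acid cycle and the mitochondrial ribosome, are not described. Ndufs8, the complex III core subunits, Cox5b, Esrra, Gabpa, Twnk, Coa3, Higd2a, Atpif1 and Coq8b were named after their values were seen. The members and all lists were chosen with earlier results of these data known. Promoter bases are RefSeq's for GRCm38.p6, and overlaps of genes came from GENCODE M21.

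The processing was also changed 1 step at a time, with another pseudocount (0.1 or 5), another filter on low values (none, or FPKM 5), another scaling (median of ratios, a common total, quantiles), a fit of only the 2 groups compared, a block for the replicate number, protein-coding genes alone, and fits without each library in turn or without Control 1, 2 and 3, DDC 1 and R15 3, which hold pancreatic transcripts. Leaving out Control 1 and Control 3, and limma voom on whole reads, were added after seeing the data.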

Additional observations from a re-analysis of the deposited data

Results flagged for a closer look

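Cox4i1 stood at 185.0 FPKM in DDC replicate 4, while the other DDC libraries lay within 0.1 FPKM of 170.1. This library was set apart by the gap to its group in a check of 60 groups of 4 libraries, in which chance marks about 1 group in 20. Cox4i1 overlaps Gm20388 on the same strand, which makes its values less certain.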

How the results depend on the processing

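In DDC against Control rescaling to one total gave 42 members lower. Leaving out the 5 libraries with pancreatic transcripts gave 11 higher and 5 lower with a median of 0.017, and leaving out Control 1 and Control 3 gave 23 higher and 14 lower with a median of 0.043, both turned in direction, and in the latter Cox7b turned to 0.16. The fit without the 5 libraries keeps a lone Control library, Control 4, assumed to vary like the other groups. The median of all genes in that fit was also 0.017, so the members' median there matched it and shows no rise of the members beyond other genes. Leaving out 1 library gave 4 to 12 higher and 19 to 31 lower. In R15 against Control the members lower were 15 with no filter, 56 with median-of-ratios scaling, 0 of 317 genes called with only the 2 groups (61 at an unadjusted p), 22 of 693 with the replicate block, 0 of 13 without the 5 libraries (43 at an unadjusted p), which leave a lone Control library assumed to vary like the other groups, and 7 of 491 without Control 1 and Control 3. Leaving out 1 library gave 4 to 57 lower and 660 to 2184 genes called. In R15 against DDC rescaling gave 9 higher and 25 lower and quantile normalization 5 higher. Leaving out 1 library gave 2 to 4 higher and 25 to 43 lower. Medians moved too: from -0.08 to -0.16 with rescaling, -0.13 without Control 2, -0.04 without Control 1 and -0.02 without Control 3 in DDC against Control, from -0.27 to -0.15 without Control 1 and Control 3 in R15 against Control, and from -0.18 to -0.07 with rescaling and -0.11 with quantile normalization in R15 against DDC. The cause of the moves was not tested.

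The split of all calls moved with scaling: in R15 against Control from 1048 higher and 415 lower to 622 and 804 with median-of-ratios scaling, and with rescaling in DDC against Control from 5112 and 4869 to 4162 and 5518 and in R15 against DDC from 5099 and 4397 to 6172 and 3305. Same-numbered libraries correlated at -0.28 to 0.30 in 10 pairs, 3 of them over 0.1, which cannot show whether mice were paired. The sample labels used here name no pairs, so the replicate block was kept as an alternative only. The planned count-model tests were not run, since the deposited unit is FPKM. With 3 or 4 mice a group, small changes could be missed, and no mitochondrially encoded subunit could be assessed.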
